A study of Mus musculus with 18 samples.

Results

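Clamped mouse kidneys at day 3 after unilateral ischemia and reperfusion (UIR) were compared directly with clamped kidneys at day 1, without subtraction of the sham values. The comparison used 6 of the 18 RNA sequencing libraries of the series, 3 from each day, chosen by their labels. FPKM is a read density per length of transcript and per size of the library. Genes were kept where 3 or more of the 18 libraries reached 1 FPKM, which left 14716 of the 20825 listed. All mice were C57BL/6 animals aged 11 weeks. In UIR mice the right renal pedicle was clamped for 45 minutes and released while the left kidney stayed intact. Mice lay on a pad at 37 °C and were sacrificed at day 1, 3 or 21. Controls were sham-treated mice of the same strain, age and days, with 3 biological replicates in each of the 6 groups. The labels name neither the kidney that was sequenced nor the sex of the mice, and every p-value below measures only the spread between these libraries.

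After ischemia, tubule cells first switch on stress genes: immediate early transcription factors such as AP-1, heat shock chaperones that refold damaged proteins, and antioxidant enzymes under NRF2. Surviving tubule cells then lose specialised transport functions, enter the cell cycle and divide to replace lost cells, while neutrophils give way to monocytes and macrophages. The enzymes and mitotic proteins of the cell cycle are made in waves, with E2F factors driving S-phase genes and other regulators driving genes of mitosis.

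From day 1 to day 3, most of the listed immediate early genes, NRF2 targets and neutrophil markers and 22 of 41 proximal tubule genes fell in clamped kidneys, and most listed genes of DNA replication, mitosis, macrophages, T cells and matrix rose. Of 14716 genes, 7271 rose (49.4%) and 2513 fell (17.1%) at a limma adjusted p under 0.05, and "rose" and "fell" below mean calls at this threshold on the log2(FPKM + 1) scale. A change of at least 2-fold was called for 2150 genes upward (14.6%) and 734 downward (4.99%). The change reached 4-fold for 405 of the increases and 222 of the decreases, and 16-fold for 32 and 24. The 3 day-3 values lay all above the 3 day-1 values for 49.9% of genes and all below for 17.5%. The account below follows 892 genes in 40 lists by role, of which 799 passed the filter. Of the 14716 genes tested 641 passed with exactly 3 libraries, and 308 with 2 libraries at 1 FPKM stayed outside. Without the UIR day-3 libraries 175 of the genes tested would have missed the filter, and 126 without those of UIR day 1. Such genes are said below to have passed only through that day. The filter favoured an increase for the 175 and a decrease for the 126, without fixing the direction.

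The excess of increases depended on the scale. The median gene rose by 0.29 on the log2 scale in the deposited values, and 74.3% of called genes were higher. With median-of-ratios scaling, which sets the median gene near 0, 4435 genes were higher (30.1%) and 4848 lower (32.9%), so that 47.8% of calls were higher, and with quantile normalization the share was 50.6%. Changes of gene lists are therefore to be read against the all-gene median of 0.29 and are given with the calls after median-of-ratios scaling. List counts are to be read against the shares of all genes, 49.4% higher and 17.1% lower in UIR kidneys. Those after median-of-ratios scaling are to be read against 30.1% higher and 32.9% lower instead. In sham kidneys the shares were 12.8% higher and 29.7% lower, and for the UIR change minus the sham change 50.1% and 12.7%. The most abundant genes held less of the library at day 3. The 10 most abundant genes held 14.4% ± 1.3 of the FPKM sum at day 1 and 7.2% ± 0.4 at day 3, and 12375 ± 97.3 and 13372 ± 139 genes reached 1 FPKM (SD, n = 3 each). Relative depth, estimated from the worth of 1 read in low values, ran from 0.952 to 0.977 at day 1 and from 1.115 to 1.154 at day 3, and its part in the results was not tested. The libraries of 1 day correlated at Spearman's rho of 0.972 to 0.985 (day 1) and 0.984 to 0.992 (day 3) across genes, which are not independent replicates, and libraries of different days at 0.876 to 0.904. At day 1 replicate 3 had the lowest correlations, at 0.972 and 0.975, and it held the lowest Hspa1a and Slc34a1. At day 3 replicates 1 and 3 were the least alike, at 0.984, and replicate 3 held the lowest Cd3e and Col1a1, as the values below show. The kidney transcripts Umod and Slc34a1 were present in all 6 libraries. The libraries hold RNA of bulk tissue, so fewer cells of a type and less RNA per cell cannot be told apart.

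**Figure D1:**
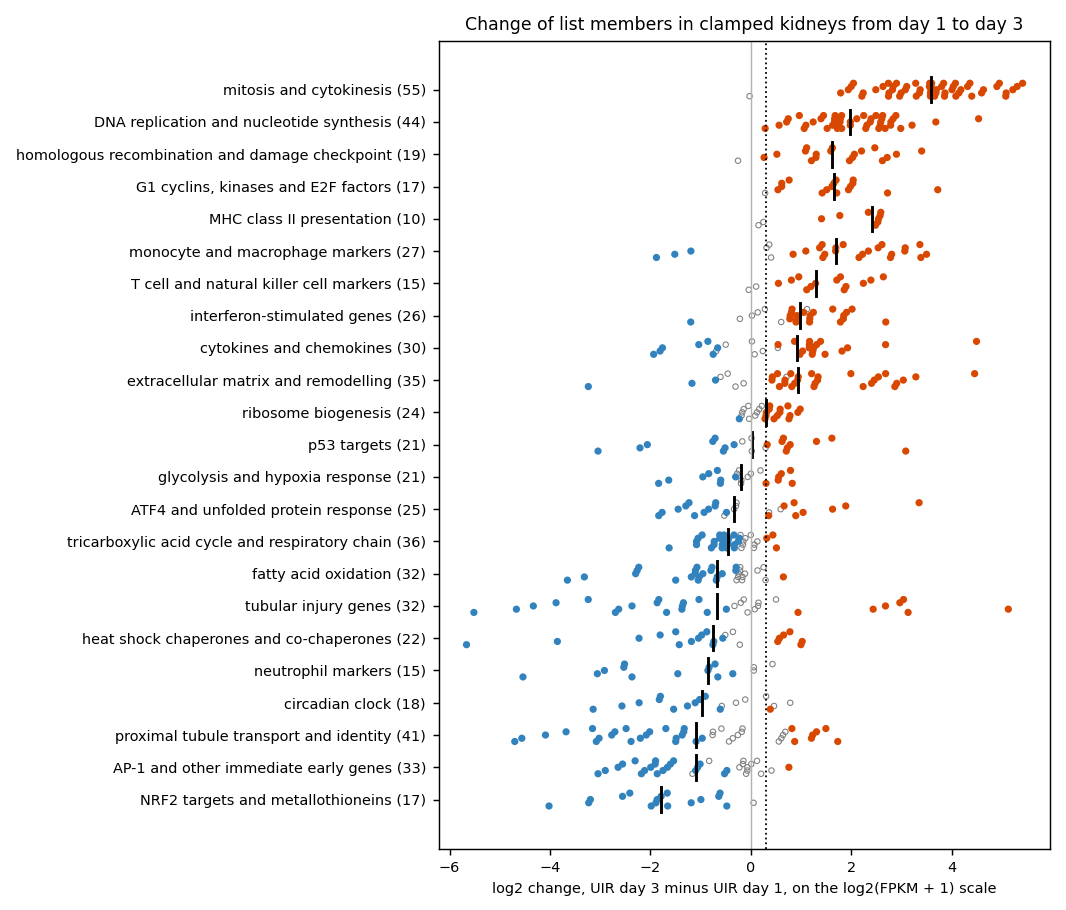
Log2 change from UIR day 1 to UIR day 3 on the log2(FPKM + 1) scale (x axis) for each tested member of 23 gene lists (y axis, number of tested members in brackets). Orange and blue points are members called higher and lower, open points were not called, black bars are list medians and the dotted line is the all-gene median of 0.29. Mitosis genes lie farthest right, with a median of 3.59, and NRF2 targets farthest left, with -1.79.

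Immediate early genes, which code for transcription factors and phosphatases induced within minutes of a stimulus, mostly fell. Of 33 members 20 fell and 1 rose, against 17.1% and 49.4% of all genes, with a median log2 change of -1.10, and the calls after median-of-ratios scaling were 1 higher and 23 lower. Atf3, a stress-induced transcription factor, stood at 160.1, 84.0 and 41.7 FPKM at day 1 and 8.14, 10.3 and 9.07 FPKM at day 3. The 2 sets did not overlap, and day-1 replicate 3 was closest to day 3 (log2 change -3.04 ± 0.33 (SE), limma adjusted p = 1.02e-06). Fosl1, an AP-1 subunit, went from 193, 142 and 70.4 FPKM at day 1 to 17.4, 13.8 and 16.6 FPKM at day 3 (log2 change -2.90 ± 0.28 (SE), limma adjusted p = 2.75e-07). Dusp1, a phosphatase that switches off MAP kinases, went from 225, 141 and 91.3 FPKM at day 1 to 19.4, 20.3 and 27.0 FPKM at day 3 (log2 change -2.64 ± 0.38 (SE), limma adjusted p = 1.86e-05). In each of these genes replicate 1 was highest and replicate 3 lowest at day 1, while the day-3 libraries lay close together. Fos fell from 34.7 ± 17.3 to 6.87 ± 2.43 FPKM and Egr1 from 163 ± 75.4 to 37.0 ± 6.07 FPKM (SD, n = 3 each), with adjusted p of 0.00183 and 0.000729 by limma. Srf, the serum response factor, was the only member that rose, from 10.6, 10.8 and 12.1 to 20.7, 21.9 and 16.4 FPKM (log2 change 0.76 ± 0.11 (SE), limma adjusted p = 2.63e-05). Fosl2 at 27.3, 26.8 and 24.1 against 23.2, 28.8 and 26.9 FPKM was not called (limma adjusted p = 0.966).

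In sham kidneys 26 of the 33 immediate early genes also fell from day 1 to day 3, against 29.7% of all genes. The UIR change differed from the sham change for 15 of the 33, with 10 called higher and 5 lower, against 50.1% and 12.7% of all genes. Sham levels of Atf3 were 9.35, 16.4 and 10.3 FPKM at day 1 and 0.39, 0.82 and 0.39 FPKM at day 3. The UIR change minus the sham change was 0.02 ± 0.47 (SE) for Atf3, 0.27 ± 0.73 for Fos and 0.28 ± 0.61 for Egr1, with limma adjusted p of 0.978, 0.761 and 0.709, none of which passed the threshold. For Fosl1 and Dusp1 the difference was called, at -1.41 ± 0.40 and -2.70 ± 0.54 (adjusted p = 0.00612 and 0.000478, limma). At day 3 all 3 UIR values of Atf3, Fosl1, Fos and Egr1 still lay above all 3 sham values of the same day.

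Among 22 heat shock chaperones and co-chaperones, 13 fell and 6 rose, against 17.1% and 49.4% of all genes, with a median of -0.75. The calls after median-of-ratios scaling were 3 higher and 16 lower, against 30.1% and 32.9% of all genes. The inducible Hsp70 gene Hspa1a had the largest decrease among the genes tested with a mean of at least 5 FPKM, from 1256, 1248 and 344 FPKM to 14.6, 20.1 and 11.6 FPKM (log2 change -5.66 ± 0.61 (SE), limma adjusted p = 7.6e-07). Its near-identical copy Hspa1b went from 928, 1069.8 and 231 to 34.9, 55.5 and 36.8 FPKM (log2 change -3.85 ± 0.64 (SE), limma adjusted p = 6.83e-05), and reads may have been divided between the copies. Day-1 replicate 3 was the lowest of its group for both and still lay above every day-3 library. Hsph1, an Hsp110 exchange factor, fell from 202, 254 and 84.1 FPKM at day 1 to 29.1, 44.2 and 30.6 FPKM at day 3 (log2 change -2.23 ± 0.31 (SE), limma adjusted p = 1.04e-05). Dnajb1, the co-chaperone of Hsp70, and Hsp90aa1, the inducible cytosolic Hsp90, fell as well, with log2 changes of -1.81 ± 0.32 and -1.5 ± 0.22 (adjusted p = 0.000136 and 1.97e-05, limma). Hspe1 and Hspd1, the mitochondrial co-chaperonin and chaperonin that share a promoter region, fell from 251 ± 113 to 86.5 ± 9.14 and from 349 ± 194 to 137 ± 9.38 FPKM (SD, n = 3).

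The 6 genes of the heat shock list that rose were Hsf1, Chordc1, Stip1, Fkbp4, Ahsa1 and Hspa4l, mostly partners of Hsp90. Of these, Fkbp4, Ahsa1 and Hspa4l were not called after median-of-ratios scaling. Hspa4l was also not called with quantile normalization or when only the libraries compared were fitted. Hsf1, the heat shock transcription factor, went from 12.1, 11.7 and 13.5 to 24.9, 26.8 and 25.5 FPKM (log2 change 1.00 ± 0.10 (SE), limma adjusted p = 4.44e-07), and Chordc1, an Hsp90 co-chaperone, from 13.0, 18.4 and 11.3 to 26.6, 34.7 and 27.5 FPKM (log2 change 1.02 ± 0.19 (SE), limma adjusted p = 0.000215). In sham kidneys 4 of the 22 fell and 3 rose, against 29.7% and 12.8% of all genes. The UIR change of Hspa1a minus the sham change was -4.89 ± 0.86 (limma adjusted p = 0.000142), with sham values of 10.8, 9.61 and 17.3 FPKM at day 1 and 6.19, 9.16 and 5.24 FPKM at day 3. The UIR day-3 values of Hspa1a thus overlapped the range of sham day 1. Without day-1 replicate 3, 16 members fell and 6 rose, and without day-1 replicate 2, 11 fell and the median was -0.47.

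The Hspe1 promoter is shown because it held the heat shock element, the alternating GAA and TTC motif read by Hsf1, and because its gene fell. The motif was searched as GAANNTTCNNGAA or TTCNNGAANNTTC on both strands of the RefSeq promoter (250 bases before to 50 after the gene start, build GRCm38.p6), overlapping matches included. Among heat shock genes 2 of 12 promoters (16.7%) held it, against 0.503% of all 22855 promoters of genes listed once and 0.338% of the 9167 promoters of genes tested. The printed stretch is chr1:55088044-55088091 on the plus strand, and capitals mark the overlapping matches.
Hspe1: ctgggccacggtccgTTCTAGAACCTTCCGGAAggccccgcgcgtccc

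NRF2 targets and metallothioneins fell most uniformly of the stress lists: 16 of 17 fell and 0 rose, with a median of -1.79, and the calls after median-of-ratios scaling were 0 higher and 17 lower. Of the 17, 1 had passed the filter only through UIR day 1. Srxn1, sulfiredoxin, which repairs oxidised peroxiredoxins, had 735, 799.9 and 582 FPKM at day 1 and 42.1, 41.8 and 42.7 FPKM at day 3 (log2 change -4.02 ± 0.12 (SE), limma adjusted p = 4.59e-13). Its day-3 values lay within 1 FPKM of each other and at least 10-fold below each day-1 value. The metal-binding metallothioneins Mt2 and Mt1 fell from 2148, 1185 and 1725 to 148, 146 and 261 FPKM and from 2324, 1209 and 1703 to 237, 243 and 406 FPKM (log2 change -3.19 ± 0.31 and -2.56 ± 0.26, limma adjusted p = 2.29e-07 and 4.59e-07). Gclc, the rate-limiting enzyme of glutathione synthesis, and Hmox1, heme oxygenase 1, fell too, with log2 changes of -2.41 ± 0.15 and -1.87 ± 0.31 (adjusted p = 2.54e-09 and 6.74e-05, limma). Only G6pdx was not called, at 33.9, 32.9 and 47.1 against 38, 38.7 and 40.2 FPKM (limma adjusted p = 0.69), and it was called without day-1 replicate 3 (log2 change 0.22). After median-of-ratios scaling G6pdx was called lower (log2 change -0.34, limma adjusted p = 0.0184). In sham kidneys 13 of 17 fell, against 29.7% of all genes. The UIR change was called lower than the sham change for 9 of 17 and higher for 3, against 12.7% and 50.1% of all genes, with a median difference of -0.56. Hmox1 was among the 3 and fell in sham kidneys from 404 ± 180.0 to 18.9 ± 6.49 FPKM, more than in UIR kidneys (difference 2.43 ± 0.44, limma adjusted p = 0.000175).

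ATF4 and unfolded protein response genes moved in both directions. Of 25 members 11 fell and 8 rose, against 17.1% and 49.4% of all genes, with a median of -0.33, and the calls after median-of-ratios scaling were 5 higher and 15 lower. Atf4 itself, the transcription factor of the amino acid and stress response, fell from 324, 302 and 237 FPKM at day 1 to 80.8, 83.1 and 74.3 FPKM at day 3 (log2 change -1.83 ± 0.13 (SE), limma adjusted p = 1.11e-08), and Trib3 and Ddit3, its pro-apoptotic targets, fell with log2 changes of -1.77 ± 0.24 and -1.29 ± 0.21 (adjusted p = 7.81e-06 and 5.07e-05, limma). Phgdh, the first enzyme of serine synthesis, rose instead, from 12.3, 13.3 and 15.8 FPKM at day 1 to 144, 159 and 147 FPKM at day 3 (log2 change 3.35 ± 0.23 (SE), limma adjusted p = 7.63e-09), where sham kidneys had 4.47 ± 1.49 and 3.76 ± 1.29 FPKM (SD, n = 3). The endoplasmic reticulum folding enzymes Pdia4 and Sdf2l1 rose by 1.63 ± 0.21 and 1.89 ± 0.46 (adjusted p = 4.51e-06 and 0.00189, limma). In sham kidneys 14 of 25 fell and 3 rose, against 29.7% and 12.8% of all genes.

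Of 21 glycolysis and hypoxia genes 8 fell and 6 rose, against 17.1% and 49.4% of all genes, with a median of -0.20. The calls after median-of-ratios scaling were 2 higher and 12 lower, against 30.1% and 32.9% of all genes. Slc2a1, the glucose transporter GLUT1, fell from 192, 183 and 105 FPKM at day 1 to 44.2, 43.8 and 39.8 FPKM at day 3 (log2 change -1.84 ± 0.16 (SE), limma adjusted p = 6.64e-08), and the hypoxia-induced peptide Adm fell with a log2 change of -1.64 ± 0.13 (adjusted p = 3.71e-08, limma). The glycolytic enzymes Pgam1 and Eno1 rose, from 147 ± 12.3 to 260.3 ± 12.7 and from 427 ± 43.6 to 650.0 ± 43.2 FPKM (SD, n = 3, limma adjusted p = 2.29e-07 and 4.32e-05), of which Eno1 was not called after median-of-ratios scaling.

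**Figure D2:**
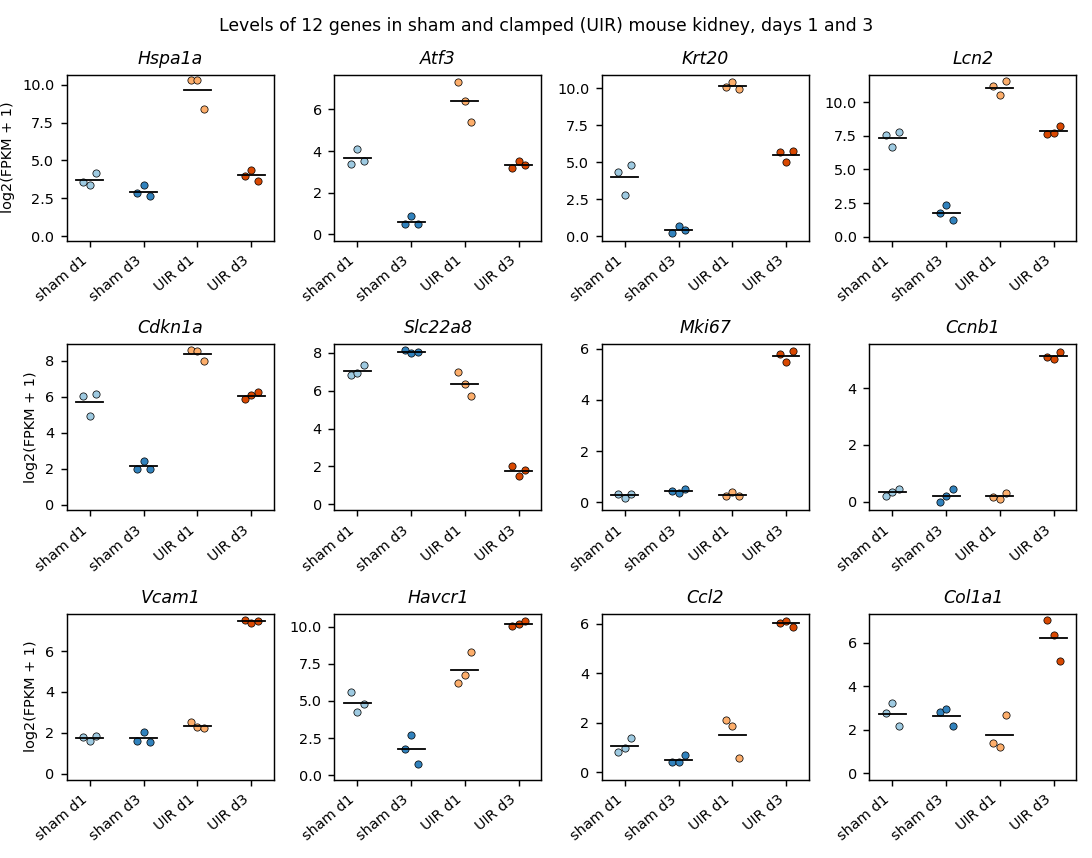
Levels of 12 genes as log2(FPKM + 1) (y axes) in the 3 libraries of sham day 1, sham day 3, UIR day 1 and UIR day 3 (points, with black bars for means). Hspa1a, Atf3, Krt20, Lcn2, Cdkn1a and Slc22a8 are lower and the other 6 genes higher in every UIR day-3 library than in every UIR day-1 library.

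Markers of tubular injury moved in both directions. Of 32 listed genes 17 fell, 7 rose and 8 were not called, with a median of -0.68, and the calls after median-of-ratios scaling were 7 higher and 20 lower. Among all genes 17.1% fell and 49.4% rose. Of the 32, 1 had passed the filter only through UIR day 1. Krt20, a keratin of stressed epithelium, went from 1113, 1374 and 993 FPKM at day 1 to 50.9, 31.1 and 54.6 FPKM at day 3 (log2 change -4.67 ± 0.39 (SE), limma adjusted p = 5.35e-08). Lcn2, the urinary injury marker NGAL that binds bacterial siderophores, went from 2357, 1486 and 3001 FPKM at day 1 to 197, 208 and 302 FPKM at day 3 (log2 change -3.24 ± 0.38 (SE), limma adjusted p = 1.93e-06). Vgf, a secreted neuropeptide precursor, went from 47.2, 26.4 and 124 FPKM at day 1 to 0.23, 0.15 and 0.22 FPKM at day 3 (log2 change -5.52 ± 0.34 (SE), limma adjusted p = 1.79e-09). None of the 3 genes overlapped between days, and day-1 replicate 3 was the highest library for Vgf and Lcn2. The fibrinogen chain Fgg also had its highest value in that library, with 43.3, 46.5 and 179.9 FPKM at day 1 and 2.98, 2.19 and 2.67 FPKM at day 3 (log2 change -4.33 ± 0.46 (SE), limma adjusted p = 6.41e-07). In sham kidneys Fgg fell from 487, 199 and 297 to 3.03, 3.79 and 3.03 FPKM, a larger drop than in UIR kidneys (difference 1.84 ± 0.64, limma adjusted p = 0.021). For Krt20 the UIR change minus the sham change was not called.

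Other injury markers rose to day 3. Vcam1, the adhesion molecule of injured proximal tubule and endothelium, stood at 4.83, 3.84 and 3.69 FPKM at day 1 and 185, 167 and 180.0 FPKM at day 3 (log2 change 5.13 ± 0.13 (SE), limma adjusted p = 1.15e-13), and sham kidneys stayed at 2.34 ± 0.30 and 2.37 ± 0.63 FPKM (SD, n = 3). Havcr1, the injury marker KIM-1, stood at 71.5, 106 and 307 FPKM at day 1 and 1044, 1140.2 and 1343 FPKM at day 3 (log2 change 3.13 ± 0.56 (SE), limma adjusted p = 0.000146). Its lowest day-3 value was above its highest day-1 value, which again came from replicate 3. Vim, the intermediate filament vimentin, rose from 89.2 ± 35.9 to 665 ± 87.6 FPKM and the hyaluronan receptor Cd44 from 8.59 ± 3.02 to 75.9 ± 11.0 FPKM (SD, n = 3, limma adjusted p = 4.42e-08 and 3.28e-10). Sox9, a transcription factor of regenerating tubules, was already at 19.5, 25.9 and 28.6 FPKM at day 1 and had 27.5, 22.2 and 32.9 FPKM at day 3, a change that was not called (log2 change 0.15 ± 0.31 (SE), limma adjusted p = 0.679). In sham kidneys 25 of 32 injury genes fell and 0 rose, against 29.7% and 12.8% of all genes, and Havcr1 fell there from 30.9 ± 14.9 to 2.89 ± 2.46 FPKM. The UIR change was called higher than the sham change for 20 of 32 and lower for 2, with a median difference of 1.25. Among all genes these shares were 50.1% and 12.7%.

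Ligands of the EGF receptor, which signal tubule cells to survive and divide, fell where they were called. Hbegf went from 158, 97.8 and 54.5 FPKM at day 1 to 17.0, 17.9 and 17.6 FPKM at day 3 (log2 change -2.37 ± 0.30 (SE), limma adjusted p = 4.97e-06). Areg went from 10.2, 13.0 and 3.73 to 1.38, 1.26 and 2.92 FPKM and Egf, made by the distal tubule, from 107, 102 and 17.5 to 18, 18.4 and 10.0 FPKM (log2 change -1.71 ± 0.34 and -1.89 ± 0.47, limma adjusted p = 0.000337 and 0.00212). The days overlapped for Egf in day-1 replicate 3, and without that library its log2 change was -2.72. Egfr, the receptor, was not called at 17.1, 20.6 and 14.1 against 17.3, 17.2 and 16.7 FPKM (limma adjusted p = 1). After median-of-ratios scaling Egfr was called lower (log2 change -0.38, limma adjusted p = 0.0175). Of 9 tested ligands and receptors 4 ligands fell and 2 receptors, Erbb2 and Erbb4, rose, against 17.1% and 49.4% of all genes. The calls after median-of-ratios scaling were 1 higher and 7 lower, against 30.1% and 32.9% of all genes.

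Cell cycle genes rose almost without exception. Of 55 mitosis and cytokinesis genes 54 rose, with a median log2 change of 3.59, of 44 DNA replication and nucleotide synthesis genes 44 rose (1.98), and of 17 G1 cyclins, kinases and E2F factors 16 rose (1.65). Of these 5, 2 and 1 had passed the filter only through UIR day 3. After median-of-ratios scaling 54, 42 and 14 were called higher, and 1 mitosis gene, Pttg1 (securin), was called lower. As deposited Pttg1 was not called, at 31.7, 33.5 and 37.6 against 31.8, 36.5 and 32.6 FPKM. In sham kidneys 1 of the 55 mitosis genes rose and 8 fell, and the UIR change exceeded the sham change for 55 of 55 (50.1% of all genes).

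In G1, the cyclin Ccnd1 went from 36.6, 52.1 and 35.7 FPKM at day 1 to 145, 112 and 154 FPKM at day 3 (log2 change 1.71 ± 0.26 (SE), limma adjusted p = 3.28e-05), and its kinase Cdk4 from 49.5 ± 6.43 to 193 ± 13.3 FPKM (SD, n = 3, limma adjusted p = 1.31e-10). E2f8, a repressing E2F factor that is itself an E2F target, went from 0.12, 0.02 and 0.05 FPKM at day 1 to 14.3, 10.6 and 14.5 FPKM at day 3 (log2 change 3.72 ± 0.12 (SE), limma adjusted p = 5.59e-13). E2f1, an activating E2F factor, went from 0.79, 0.89 and 1.21 to 12.6, 10.6 and 12.7 FPKM (log2 change 2.72 ± 0.13 (SE), limma adjusted p = 7.62e-11). The day-1 libraries of both lay near or below 1 FPKM, and day 3 did not overlap with them. Ccne1, cyclin E1 of the G1 to S transition, rose by 2.04 ± 0.15 (limma adjusted p = 1.51e-08), and the phosphatase gene Cdc25a was not called (10.0, 8.0 and 5.83 against 10.2, 8.99 and 9.95 FPKM). It was called without day-1 replicate 1 (log2 change 0.45) and as TPM (0.47).

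In S phase, the thymidine kinase gene Tk1 went from 1.41, 0.88 and 1.74 FPKM at day 1 to 52.0, 48.6 and 58.0 FPKM at day 3 (log2 change 4.54 ± 0.20 (SE), limma adjusted p = 2.66e-11). Mcm5, a subunit of the replicative helicase, went from 3.42, 2.84 and 3.36 FPKM at day 1 to 39.2, 34.6 and 40.1 FPKM at day 3 (log2 change 3.21 ± 0.11 (SE), limma adjusted p = 1.2e-12). Uhrf1, which maintains DNA methylation behind the fork, went from 1.98, 1.49 and 4.17 to 45.2, 36.7 and 45.8 FPKM (log2 change 3.68 ± 0.20 (SE), limma adjusted p = 3.96e-10). Every day-3 value exceeded every day-1 value in these genes by more than 5-fold. Rrm2, a subunit of ribonucleotide reductase, was already detected at day 1 with 11.2 ± 2.48 FPKM, against 1.88 ± 0.39 FPKM in sham kidneys of that day, and reached 86.2 ± 17.4 FPKM at day 3 (SD, n = 3). Pcna, the sliding clamp, was likewise present at day 1 with 56.9, 71.1 and 71.2 FPKM and had 130.4, 122 and 138 FPKM at day 3, one of the smaller increases (log2 change 0.97 ± 0.12 (SE), limma adjusted p = 3.47e-06).

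Genes of G2 and mitosis started near 0 and changed most. Mki67, the proliferation antigen of the chromosome surface, stood at 0.20, 0.34 and 0.18 FPKM at day 1 and 54.3, 43.8 and 58.4 FPKM at day 3 (log2 change 5.41 ± 0.11 (SE), limma adjusted p = 3.21e-14). Top2a, the mitotic topoisomerase, stood at 0.28, 0.42 and 0.37 FPKM at day 1 and 48.0, 39.0 and 48.8 FPKM at day 3 (log2 change 5.09 ± 0.12 (SE), limma adjusted p = 7.8e-14). The mitotic cyclin Ccnb1 stood at 0.11, 0.08 and 0.24 FPKM at day 1 and 33.2, 31.8 and 38.2 FPKM at day 3 (log2 change 4.95 ± 0.12 (SE), limma adjusted p = 7.8e-14). All day-1 values of these 3 genes were below 1 FPKM, as were those of the 6 sham libraries, and the 3 day-3 libraries differed from each other by less than 1.5-fold. Cdca3, Ccna2, Ccnb2, Cdc20 and Ube2c, which code for regulators and targets of the anaphase-promoting complex and for cyclins, rose by 5.30, 5.22, 5.08, 4.90 and 4.63 on the log2 scale (limma adjusted p between 2.8e-13 and 1.11e-11). For such low starting levels the log2(FPKM + 1) scale understates the fold. The summed level of the 55 genes was 92.9 to 106 FPKM in the day-1 libraries, below the 151 to 176 FPKM of sham kidneys of that day, and 1304 to 1591 FPKM at day 3. At day 21 the sum was 261 to 329 FPKM.

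The promoters of 4 of these mitosis genes are shown because 2 sequence motifs that are known from cell cycle promoters were frequent in the list. The cell cycle gene homology region (CHR) was searched as TTTGAA or TTCGAA and the CCAAT box as CCAAT, on both strands of the same RefSeq promoters, each counted separately. The CHR was found in 33 of 43 promoters (76.7%) of the mitosis genes, in 4 of 31 promoters (12.9%) of the DNA replication genes in 19.8% of all 22855 promoters and in 14.1% of the 9167 promoters of genes tested. The CCAAT box was found in 67.4% of mitosis promoters, 61.3% of replication promoters and 38.2% of all promoters, and in 39.0% of those of genes tested. Both motifs together were found in 62.8% of mitosis promoters, 7.75% of all promoters and 5.92% of those of genes tested. Among genes that rose by at least 4-fold, 37.8% of promoters held a CHR, and among those that fell by at least 4-fold 13.6%. The genes that rose by at least 4-fold include mitosis genes, so their share is not separate from that of the list. An E2F motif (TTTGGCGC, TTTCGCGC or TTTCCCGC) was found in 12 of 31 promoters (38.7%) of the replication genes, 9.3% of mitosis promoters, 1.9% of all promoters and 3.53% of those of genes tested. A match of letters is a description and not a bound site. The 4 genes are those of the list with the largest increase whose promoters had both motifs before the gene start or at most 15 bases after it. The stretches, in build GRCm38.p6 and read 5′ to 3′, lie at chr7:135716457-135716582 on the minus strand, chr11:99024192-99024431 on the minus strand, chr9:70421530-70421736 on the minus strand and chr4:118437332-118437411 on the minus strand, in the order printed. Capitals mark CHR and CCAAT matches in either orientation, and 15 bases are added on each side.
Mki67: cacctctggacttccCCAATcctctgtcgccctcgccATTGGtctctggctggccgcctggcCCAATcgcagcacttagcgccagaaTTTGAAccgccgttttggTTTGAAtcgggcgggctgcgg
Top2a: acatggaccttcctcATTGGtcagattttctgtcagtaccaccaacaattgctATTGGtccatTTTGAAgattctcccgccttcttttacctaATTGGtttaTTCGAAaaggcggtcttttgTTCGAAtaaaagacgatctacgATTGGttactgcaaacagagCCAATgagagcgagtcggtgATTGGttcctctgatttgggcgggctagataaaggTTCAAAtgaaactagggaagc
Ccnb2: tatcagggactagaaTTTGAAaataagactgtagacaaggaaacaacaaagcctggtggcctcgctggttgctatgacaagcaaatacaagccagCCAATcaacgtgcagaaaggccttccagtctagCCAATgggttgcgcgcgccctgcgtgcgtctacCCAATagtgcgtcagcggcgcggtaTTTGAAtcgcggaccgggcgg
Cdc20: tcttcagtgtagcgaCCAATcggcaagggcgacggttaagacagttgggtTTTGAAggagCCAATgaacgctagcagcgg

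Inhibitors of the cycle changed in different directions. Cdkn1a (p21), which stops cyclin-dependent kinases after damage, fell from 388, 366 and 257 FPKM at day 1 to 57.2, 67.5 and 74.7 FPKM at day 3 (log2 change -2.31 ± 0.26 (SE), limma adjusted p = 1.2e-06). The days did not overlap, and all day-3 values still lay above the 2.94, 4.47 and 2.95 FPKM of sham day 3. Sham kidneys fell further, from 64.2, 29.6 and 69.6 FPKM at day 1, and the difference of the changes was 1.25 ± 0.36 (limma adjusted p = 0.00724). That difference was not called with a pseudocount of 5 (0.50) or with median-of-ratios scaling (0.74). Cdkn2c (p18) rose from 4.63, 3.71 and 4.03 to 20.1, 19.2 and 19.6 FPKM (log2 change 2.01 ± 0.11 (SE), limma adjusted p = 3.96e-10). Of 21 p53 targets 8 fell and 9 rose, against 17.1% and 49.4% of all genes, with a median of 0.02. The calls after median-of-ratios scaling were 4 higher and 11 lower, against 30.1% and 32.9% of all genes. The damage-induced Plk3 and Gadd45a fell from 90.4 ± 39.8 to 9.53 ± 1.27 and from 181 ± 16.4 to 42.7 ± 4.75 FPKM, while Psrc1, a spindle protein, and Phlda3, an inhibitor of Akt, rose by 3.09 ± 0.18 and 1.61 ± 0.24 (adjusted p = 1.14e-09 and 1.92e-05, limma).

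Of 19 genes of homologous recombination and the damage checkpoint 18 rose, with a median of 1.62, and the calls after median-of-ratios scaling were 16 higher and 1 lower. Among the 19, 7 had passed the filter only through UIR day 3. Brca1, a ubiquitin ligase of double-strand break repair, went from 0.09, 0.17 and 0.22 FPKM at day 1 to 6.28, 5.48 and 6.68 FPKM at day 3 (log2 change 2.62 ± 0.08 (SE), limma adjusted p = 6.18e-13). The clustered histone genes were mostly outside the test, with 12 of 64 tested, of which 7 rose and 2 fell, against 49.4% and 17.1% of all genes. Hist1h2ap, a replication-dependent H2A gene, went from 1.67, 3.90 and 3.68 FPKM at day 1 to 161, 119 and 224 FPKM at day 3 (log2 change 5.38 ± 0.38 (SE), limma adjusted p = 8.53e-09), and Hist1h2ao was listed at 0 in all 3 day-1 libraries and at 88.4, 35.1 and 74.8 FPKM at day 3, so it is given no fold. Histone genes have near-identical copies, and these levels are uncertain as single genes. Of 24 ribosome biogenesis genes 14 rose and 1 fell in the deposited values, against 49.4% and 17.1% of all genes, but the calls after median-of-ratios scaling were 5 higher and 8 lower, so the list has no direction that holds on both scales. Npm1, nucleophosmin, rose on both, from 159, 235 and 201 to 353, 361 and 416 FPKM (log2 change 0.94 ± 0.14 (SE), limma adjusted p = 2.2e-05).

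Most neutrophil markers fell and most of those of macrophages and T cells rose. Of 15 tested neutrophil markers 12 fell and 0 rose, with a median of -0.85, and the calls after median-of-ratios scaling were 0 higher and 12 lower. Of the 15, 5 had passed the filter only through UIR day 1. Retnlg, a neutrophil resistin-like protein, went from 40.7, 48.7 and 17.9 FPKM at day 1 to 0.92, 0.37 and 0.19 FPKM at day 3 (log2 change -4.54 ± 0.34 (SE), limma adjusted p = 1.6e-08). S100a8 and S100a9, the calprotectin subunits, fell from 50.1 ± 15.0 to 5.19 ± 2.02 and from 84.2 ± 21.3 to 10.5 ± 3.73 FPKM (SD, n = 3, limma adjusted p = 2.98e-05 and 0.000146). The defining marker Ly6g was low throughout and not called, at 1.82, 1.44 and 1.19 against 1.28, 1.68 and 1.79 FPKM, and sham kidneys had more, 4.56 ± 0.47 FPKM at day 1. With quantile normalization Ly6g was called lower (log2 change -0.44, limma adjusted p = 0.025). The sum of the listed neutrophil markers was 139 to 272 FPKM at day 1 and 28.2 to 47.6 FPKM at day 3.

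Of 27 monocyte and macrophage markers 21 rose and 3 fell, with a median of 1.69, and the calls after median-of-ratios scaling were 19 higher and 3 lower. Of the 27, 1 had passed the filter only through UIR day 3 and 1 only through UIR day 1. C1qa, a complement C1q chain made by resident and infiltrating macrophages, went from 9.21, 6.24 and 6.52 FPKM at day 1 to 143, 94.1 and 57.8 FPKM at day 3 (log2 change 3.5 ± 0.25 (SE), limma adjusted p = 8.03e-09). Adgre1, the surface antigen F4/80, went from 0.14, 0.18 and 0.21 FPKM at day 1 to 10.9, 6.39 and 3.23 FPKM at day 3 (log2 change 2.61 ± 0.24 (SE), limma adjusted p = 1.44e-07). Lyz2, a lysozyme of myeloid cells, went from 23.7, 32.9 and 11.9 FPKM at day 1 to 306, 227 and 89.9 FPKM at day 3 (log2 change 3.07 ± 0.37 (SE), limma adjusted p = 3.18e-06). Day-3 replicate 3 was the lowest of its group in all 3 genes and still lay above all day-1 values. The members that fell were Lgals3, Chil3 and Cd14, of which injured tubule cells also express Lgals3 and Cd14. Lgals3, a galectin, went from 616, 801 and 567 to 163, 178 and 192 FPKM (log2 change -1.88 ± 0.20 (SE), limma adjusted p = 6.52e-07). Without day-3 replicate 3, 23 markers rose and 3 fell, and without day-3 replicate 1, 19 rose with a median of 1.46.

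T cell and natural killer cell markers were almost absent at day 1. Of 15 tested, 13 rose and 0 fell, with a median of 1.29, and the calls after median-of-ratios scaling were 13 higher and 0 lower. Of the 15, 1 had passed the filter only through UIR day 3. Cd3e, a chain of the T cell receptor complex, stood at 0.31, 0.09 and 0.13 FPKM at day 1 and 7.41, 3.99 and 0.98 FPKM at day 3 (log2 change 1.90 ± 0.34 (SE), limma adjusted p = 0.000129). Nkg7, a granule protein of cytotoxic cells, stood at 0.32, 0.08 and 0.16 FPKM at day 1 and 15.4, 7.82 and 1.76 FPKM at day 3 (log2 change 2.64 ± 0.43 (SE), limma adjusted p = 5.31e-05). The day-3 libraries differed widely, with replicate 1 highest and replicate 3 lowest in both. Over the whole list the summed level ran from 3.13 to 4.97 FPKM at day 1 and from 13.9 to 84.8 FPKM at day 3. Of 5 tested B cell markers 3 rose, but 1 did without day-3 replicate 1 and 1 without day-1 replicate 1. After median-of-ratios scaling 1 of the 5 was called higher, and with quantile normalization 0. Cd79a had 0.29, 0.30 and 0.29 FPKM at day 1 and 0.69, 0.29 and 0.34 FPKM at day 3 and was not called (limma adjusted p = 0.35).

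Of 30 tested cytokines and chemokines 17 rose and 7 fell, against 49.4% and 17.1% of all genes, with a median of 0.93, and the calls after median-of-ratios scaling were 14 higher and 7 lower. Ccl2, which recruits monocytes, went from 3.27, 2.66 and 0.48 FPKM at day 1 to 64.8, 68.3 and 57.2 FPKM at day 3 (log2 change 4.50 ± 0.30 (SE), limma adjusted p = 4.06e-09), and sham kidneys had 1.11 ± 0.41 and 0.42 ± 0.15 FPKM. Csf1, the growth factor of macrophages, went from 11.9, 16.4 and 5.10 to 46.0, 39.4 and 38.9 FPKM (log2 change 1.93 ± 0.28 (SE), limma adjusted p = 1.76e-05). Ccl12 was listed at 0 in all day-1 libraries and at 8.73, 7.02 and 2.40 FPKM at day 3. The decreases included Cxcl2, a neutrophil attractant, from 120.2, 47.5 and 30.3 to 13.3, 13.2 and 20.1 FPKM (log2 change -1.81 ± 0.35 (SE), limma adjusted p = 0.000274), and Lif, a cytokine of the interleukin 6 family, with a log2 change of -1.94 ± 0.45 (adjusted p = 0.00128, limma). Cxcl1, another neutrophil attractant, overlapped between days, at 180.3, 63.2 and 41.8 against 42.0, 47.5 and 56.2 FPKM, and was not called, but without day-1 replicate 3 its log2 change of -1.13 was. Il6 did not pass the filter and was listed at 2.56, 6.83 and 0.51 FPKM at day 1 and 0.19, 0.10 and 0.15 FPKM at day 3.

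Of 26 interferon-stimulated genes 19 rose and 1 fell (median 0.98), of 16 complement genes 11 rose and 1 fell (1.55), and of 10 MHC class II genes 8 rose and 0 fell (2.41). After median-of-ratios scaling 18, 10 and 8 were called higher and 2, 1 and 0 lower. Irf1, a transcription factor of interferon signalling, went from 11.8, 9.57 and 10.6 FPKM at day 1 to 58.0, 44.0 and 30.0 FPKM at day 3 (log2 change 1.91 ± 0.22 (SE), limma adjusted p = 1.41e-06). C3, the central complement protein, which injured tubules also make, went from 10.0, 7.07 and 8.69 FPKM at day 1 to 191, 99.4 and 112 FPKM at day 3 (log2 change 3.77 ± 0.21 (SE), limma adjusted p = 6.95e-10), while it fell in sham kidneys from 90.8, 83.3 and 66.2 to 4.05, 6.27 and 6.56 FPKM. H2-Ab1, a class II beta chain, went from 67.1, 23.4 and 28.0 FPKM at day 1 to 354, 201 and 117 FPKM at day 3 (log2 change 2.48 ± 0.37 (SE), limma adjusted p = 2.15e-05). For Irf1 and H2-Ab1 the order of the day-3 libraries was that of Cd3e and C1qa, with replicate 1 highest and replicate 3 lowest. The sum of the macrophage markers in the day-3 libraries ran from 688 to 1301 FPKM, and how far it set these levels was not tested.

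Most matrix genes rose. Of 35 extracellular matrix and remodelling genes 27 rose and 3 fell, with a median of 0.93, and the calls after median-of-ratios scaling were 22 higher and 5 lower. Col1a1, the main fibrillar collagen chain, went from 1.58, 1.29 and 5.37 FPKM at day 1 to 132, 82.1 and 35.1 FPKM at day 3 (log2 change 4.46 ± 0.42 (SE), limma adjusted p = 2.19e-07), and Fn1, fibronectin, from 4.90, 8.22 and 4.38 FPKM at day 1 to 48.4, 38.8 and 28.4 FPKM at day 3 (log2 change 2.54 ± 0.22 (SE), limma adjusted p = 9.6e-08). Day-3 replicate 3 had the lowest Col1a1, Col1a2 and Col3a1 of its group, as it did for leukocyte markers, and remained above day 1. Without it 27 matrix genes rose, and the log2 change of Col1a1 was 4.97. Without day-3 replicate 1, 21 of 35 rose, with a median of 0.80. The decreases included those of Mmp3, a metalloproteinase, from 6.56, 29.0 and 10.4 to 0.81, 0.32 and 0.29 FPKM, and of Timp3, a metalloproteinase inhibitor. Their log2 changes were -3.24 ± 0.33 and -0.70 ± 0.14 (adjusted p = 4.91e-07 and 0.000426, limma). Of 13 tested pericyte and myofibroblast markers 11 rose, 7 of them also after median-of-ratios scaling, among them Acta2, smooth muscle actin, from 20.4, 20.0 and 18.3 FPKM at day 1 to 75.2, 62.6 and 33.4 FPKM at day 3 (log2 change 1.42 ± 0.23 (SE), limma adjusted p = 5.83e-05) and Cspg4 (NG2), from 1.96, 2.23 and 1.95 to 15.2, 13.2 and 12.1 FPKM (log2 change 2.25 ± 0.14 (SE), limma adjusted p = 2.63e-09).

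**Figure D3:**
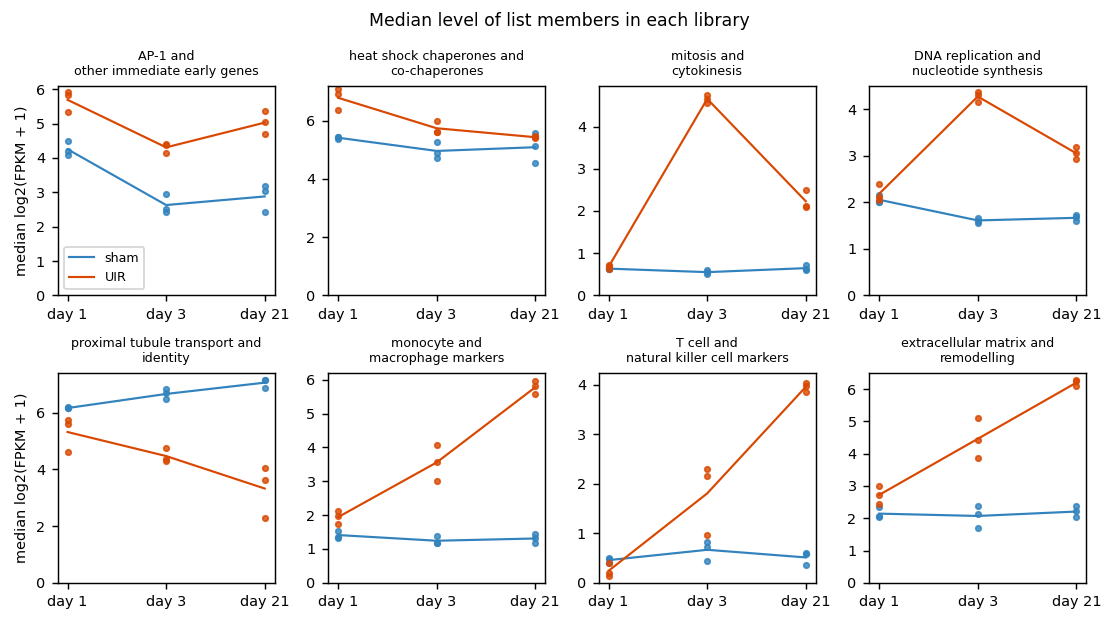
Median log2(FPKM + 1) of the tested members of 8 gene lists in each library (points) at days 1, 3 and 21 (x axis), with lines through the group means of sham (blue) and UIR (orange) kidneys. In UIR kidneys the mitosis and DNA replication medians are highest at day 3, the macrophage, T cell and matrix medians are higher at day 21 than at day 3, and the proximal tubule median is lower at each later day.

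Among proximal tubule transport genes, which recover solutes from the filtrate, more fell than rose from day 1 to day 3. Of 41 genes 22 fell and 7 rose, with a median of -1.09, and the calls after median-of-ratios scaling were 5 higher and 27 lower. Slc22a8, the organic anion transporter OAT3, stood at 123.2, 81.7 and 50.5 FPKM at day 1 and 3.02, 1.82 and 2.55 FPKM at day 3 (log2 change -4.56 ± 0.37 (SE), limma adjusted p = 4.3e-08). Slc7a13, an amino acid transporter of the S3 segment, stood at 45.6, 59.7 and 17.8 FPKM at day 1 and 0.58, 0.25 and 0.53 FPKM at day 3 (log2 change -4.70 ± 0.49 (SE), limma adjusted p = 5.38e-07). Slc34a1, the sodium phosphate cotransporter, stood at 1137, 887 and 445 FPKM at day 1 and 159.9, 181 and 87.1 FPKM at day 3 (log2 change -2.48 ± 0.54 (SE), limma adjusted p = 0.000768). In all 3 genes day-1 replicate 3 was the lowest of its group and lay above every day-3 value. The summed level of the list was 25932 to 34041 FPKM at sham day 1, 9058 to 15397 FPKM at UIR day 1 and 1822 to 2071 FPKM at UIR day 3. In sham kidneys 15 of 41 rose and 1 fell over the same days (12.8% of all genes rose), and the change in UIR kidneys was called lower than that in sham for 26 of 41 (12.7% of all genes). Without day-1 replicate 3, 28 of 41 fell, and the count was 18 without replicate 1 of that day and 19 without its replicate 2.

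Not all proximal tubule genes fell. Hnf4a, the transcription factor of proximal tubule identity, went from 53.1, 48.9 and 30.3 FPKM at day 1 to 122.9, 126 and 119 FPKM at day 3 (log2 change 1.5 ± 0.25 (SE), limma adjusted p = 6.85e-05), and its sham levels were 212 ± 16.1 and 270.4 ± 21.7 FPKM (SD, n = 3). Slc2a2, the basolateral glucose transporter GLUT2, went from 19.5, 14.1 and 4.92 to 35.0, 44.4 and 40.2 FPKM (log2 change 1.73 ± 0.46 (SE), limma adjusted p = 0.00355). Slc6a18, a neutral amino acid transporter, went from 27.5, 26.8 and 34 to 61.8, 78.0 and 83.8 FPKM (log2 change 1.31 ± 0.25 (SE), limma adjusted p = 0.000274). All 3 genes rose on every scaling tried, and the day-3 values of Hnf4a and Slc6a18 lay below every sham value of days 1 and 3, while those of Slc2a2 overlapped with sham.

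Other large decreases were those of enzymes. Dnase1, a secreted nuclease, went from 371, 247 and 154 FPKM at day 1 to 4.30, 4.23 and 4.12 FPKM at day 3 (log2 change -5.54 ± 0.43 (SE), limma adjusted p = 2.46e-08). Cyp2e1, a cytochrome P450 of small molecules, went from 736, 718 and 395 FPKM at day 1 to 19.4, 14.4 and 13.1 FPKM at day 3 (log2 change -5.18 ± 0.37 (SE), limma adjusted p = 8.8e-09). Ces1f, a carboxylesterase, and Inmt, an amine methyltransferase, fell from 138 ± 36.0 to 2.90 ± 1.77 and from 188 ± 92.0 to 5.20 ± 1.89 FPKM (SD, n = 3, limma adjusted p = 3.31e-09 and 1.36e-08). Each of the 4 genes was at least 5-fold lower in every day-3 library than in every day-1 library. Aoc1, a diamine oxidase, was the largest increase outside the cell cycle and histone genes, at 0.41, 0.65 and 1.52 FPKM at day 1 and 81.6, 74.8 and 68.5 FPKM at day 3 (log2 change 5.39 ± 0.18 (SE), limma adjusted p = 8.07e-13).

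Among 29 genes of gluconeogenesis and amino acid catabolism 15 fell and 5 rose (median -0.86), and the calls after median-of-ratios scaling were 3 higher and 19 lower. Without day-1 replicate 3, 21 fell, and without each of the other UIR libraries in turn 11 to 14 did. Pck1, which commits carbon to glucose synthesis, went from 486, 390.1 and 189 FPKM at day 1 to 17.1, 14.5 and 18.7 FPKM at day 3 (log2 change -4.23 ± 0.41 (SE), limma adjusted p = 2.94e-07). Of 32 fatty acid oxidation genes 20 fell and 1 rose (median -0.68), and the calls after median-of-ratios scaling were 0 higher and 28 lower. Ehhadh, a peroxisomal enzyme, went from 169, 147 and 163 FPKM at day 1 to 17.0, 13.7 and 14.9 FPKM at day 3 (log2 change -3.32 ± 0.24 (SE), limma adjusted p = 1.15e-08). The member that rose was Ppargc1a, the coactivator of mitochondrial genes, from 4.94, 5.40 and 7.30 to 9.28, 8.98 and 10.8 FPKM (log2 change 0.65 ± 0.18 (SE), limma adjusted p = 0.00427), and it was not called after median-of-ratios scaling. In sham kidneys 21 of the 32 fell as well (29.7% of all genes), while 18 of 29 gluconeogenesis and amino acid genes rose there (12.8% of all genes). For fatty acid oxidation the UIR change was called higher than the sham change for 8 of 32 and lower for 11 (median difference -0.02). For gluconeogenesis and amino acid genes the counts were 2 and 22 of 29 (-1.86). Among all genes the shares were 50.1% and 12.7%.

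Respiratory chain and tricarboxylic acid cycle genes numbered 36, of which 24 fell and 3 rose, with a median of -0.45, and the calls after median-of-ratios scaling were 0 higher and 32 lower. Other scalings gave fewer decreases: 5 were higher and 17 lower with quantile normalization (median -0.21), and 5 and 18 as TPM (-0.28). Cox6c, a subunit of cytochrome oxidase, went from 488, 426 and 328 FPKM at day 1 to 116, 137 and 142 FPKM at day 3 (log2 change -1.63 ± 0.14 (SE), limma adjusted p = 9.49e-08). The 3 genes that rose, Idh3a, Idh2 and Ogdh, code for enzymes of the cycle, and none was called after median-of-ratios scaling. In sham kidneys 30 of 36 rose and 0 fell, against 12.8% and 29.7% of all genes. The UIR change was called lower than the sham change for 33 of 36 (12.7% of all genes). Pdk4, which restrains pyruvate entry into the cycle, went from 264, 209 and 202 FPKM at day 1 to 5.92, 3.54 and 9.61 FPKM at day 3 in UIR kidneys (log2 change -5.02 ± 0.28 (SE), limma adjusted p = 6.54e-10). In sham kidneys it fell from 262, 171 and 291 to 4.08, 8.13 and 5.10 FPKM, with a difference of 0.15 ± 0.40 that was not called (limma adjusted p = 0.757).

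Distal segments moved in mixed directions. In the thick ascending limb 8 of 13 tested genes rose and 5 fell, against 49.4% and 17.1% of all genes, and the calls after median-of-ratios scaling were 7 higher and 5 lower. Slc12a1, the furosemide-sensitive cotransporter, went from 19.3, 26.8 and 9.22 FPKM at day 1 to 102, 111 and 84.5 FPKM at day 3 (log2 change 2.47 ± 0.32 (SE), limma adjusted p = 5.53e-06), and Kcnj1, the potassium channel ROMK, from 4.31, 7.83 and 8.06 to 47.4, 53.7 and 46.2 FPKM (log2 change 2.73 ± 0.23 (SE), limma adjusted p = 6.77e-08). Umod, uromodulin, fell from 1347, 988 and 982 to 648, 568 and 468 FPKM (log2 change -0.97 ± 0.17 (SE), limma adjusted p = 8.86e-05). Slc12a1 and Kcnj1 thus rose without overlap of the days, while Umod fell without overlap. In the distal convoluted and connecting tubule 6 of 14 fell and 5 rose, against 17.1% and 49.4% of all genes. The calls after median-of-ratios scaling were 3 higher and 7 lower, against 30.1% and 32.9% of all genes. The list included Pvalb, a calcium-binding protein of the early segment, at 16.5, 21.8 and 4.64 FPKM at day 1 and 0.12, 0.06 and 0 FPKM at day 3 (log2 change -3.63 ± 0.37 (SE), limma adjusted p = 4.42e-07). Calb1, calbindin, fell with a log2 change of -1.41 ± 0.27 (adjusted p = 0.000257, limma).

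In collecting duct principal cells 5 of 12 tested genes rose and 2 fell, against 49.4% and 17.1% of all genes, but the calls after median-of-ratios scaling were 4 higher and 5 lower, so no direction held for the list. Hsd11b2, which protects the mineralocorticoid receptor from glucocorticoids, rose on every scaling, from 22.3, 21.2 and 10.3 FPKM at day 1 to 159, 188 and 181 FPKM at day 3 (log2 change 3.29 ± 0.23 (SE), limma adjusted p = 8.36e-09). Aqp3, a basolateral water channel, fell from 88.7, 146 and 88.7 to 24.2, 33.2 and 30.0 FPKM (log2 change -1.82 ± 0.19 (SE), limma adjusted p = 6.35e-07). In intercalated cells 5 of 16 rose and 5 fell, against 49.4% and 17.1% of all genes. The calls after median-of-ratios scaling were 3 higher and 7 lower, against 30.1% and 32.9% of all genes. Without day-1 replicate 2 or 3, 3 fell. Among the members were the ammonia channel Rhcg, which rose from 8.73, 15.0 and 7.37 to 55.7, 58.6 and 52.5 FPKM (log2 change 2.37 ± 0.22 (SE), limma adjusted p = 1.34e-07), and the anion exchanger pendrin, Slc26a4, which fell from 51.5, 95.2 and 50.6 to 23.8, 19.2 and 14.6 FPKM (log2 change -1.69 ± 0.27 (SE), limma adjusted p = 4.73e-05).

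Markers of other cells that a kidney sample can hold were read to show what else moved. Of 18 endothelial markers 4 rose and 5 fell, against 49.4% and 17.1% of all genes, with a median of 0.00. The calls after median-of-ratios scaling were 1 higher and 7 lower, against 30.1% and 32.9% of all genes. Without replicate 1 of either day, 2 rose. Kdr, the main VEGF receptor, went from 10.4, 11.1 and 10.5 to 6.34, 5.64 and 4.72 FPKM (log2 change -0.84 ± 0.23 (SE), limma adjusted p = 0.00479), and Pecam1 overlapped between days at 18, 21.5 and 24.0 against 33.5, 24.3 and 22.4 FPKM and was not called. Of 12 podocyte markers 5 rose and 0 fell, against 49.4% and 17.1% of all genes, but the calls after median-of-ratios scaling were 1 higher and 1 lower, and 9 rose without day-1 replicate 3. The slit diaphragm gene Nphs1, nephrin, was not called (5.07, 6.38 and 8.75 against 6.94, 7.66 and 7.78 FPKM). The alpha globin gene Hba-a1, a marker of red cells with a near-identical copy, fell from 435, 353 and 243 FPKM at day 1 to 40.5, 43.2 and 39.5 FPKM at day 3 (log2 change -3.0 ± 0.46 (SE), limma adjusted p = 3.42e-05), and the summed erythroid markers ran from 366 to 588 FPKM at day 1 and from 66.2 to 75.7 FPKM at day 3. The red cell anion exchanger Slc4a1, which intercalated cells also express, rose instead (1.30, 3.44 and 0.71 against 8.97, 6.37 and 4.65 FPKM, log2 change 1.52 ± 0.33 (SE), limma adjusted p = 0.000686). The summed adipose markers ran from 161 to 218 FPKM at day 1 and from 29.6 to 43.0 FPKM at day 3, with a fall of Fabp4, which endothelium also expresses, from 164 ± 29.1 to 33.1 ± 6.77 FPKM (SD, n = 3, limma adjusted p = 2.2e-06). The summed skeletal muscle markers ran from 1.07 to 2.55 FPKM at day 1 and from 4.47 to 7.05 FPKM at day 3, and the adrenal markers from 1.90 to 2.54 and from 1.38 to 1.64 FPKM. How far blood or fat in the samples bears on the results was not tested.

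Of 18 genes of the circadian oscillator 11 fell and 1 rose, with a median of -0.96, and the calls after median-of-ratios scaling were 0 higher and 14 lower. Nr1d1, the repressor REV-ERB alpha, went from 95.7, 58.3 and 42.7 FPKM at day 1 to 8.59, 7.59 and 13.6 FPKM at day 3 (log2 change -2.57 ± 0.38 (SE), limma adjusted p = 2.18e-05), and Per1, which also responds to stress, from 61.1, 41.2 and 49.8 to 13.9, 11.9 and 15.4 FPKM (log2 change -1.80 ± 0.31 (SE), limma adjusted p = 8.68e-05). Arntl (BMAL1) was not called at 3.04, 3.73 and 3.11 against 6.64, 8.16 and 4.74 FPKM. Its day-3 values nevertheless all lay above its day-1 values, the opposite direction to Nr1d1 and Per1. Calls upward in the list depended on the setting, with 3 as TPM and 0 with quantile normalization. In sham kidneys 6 of 18 fell and 0 rose, against 29.7% and 12.8% of all genes. The labels give no hour of sacrifice, and the part of the time of day in these values was not tested.

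**Figure D4:**
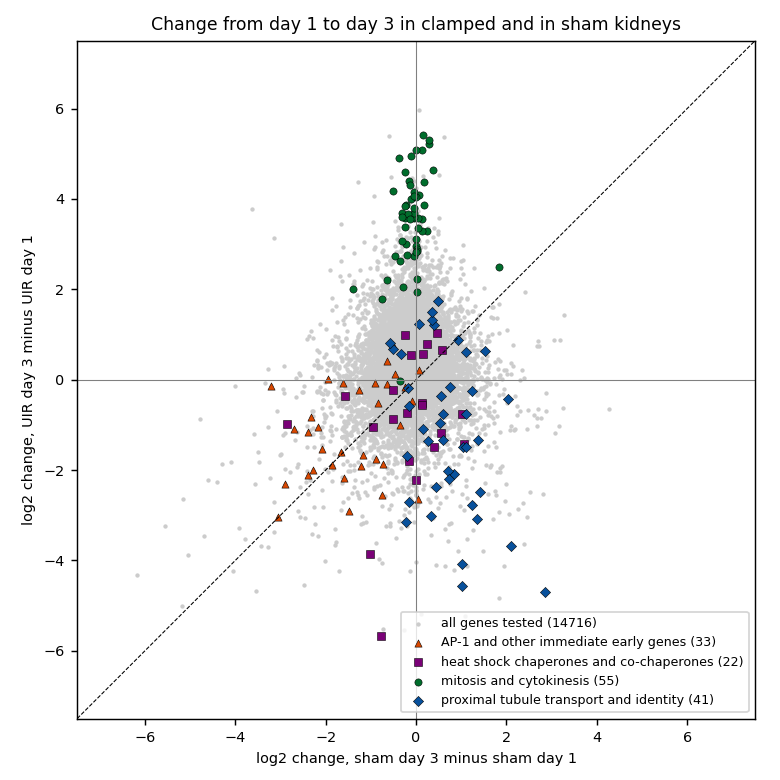
Log2 change from day 1 to day 3 in UIR kidneys (y axis) against that in sham kidneys (x axis) for all 14716 genes tested (grey) and 4 lists (coloured symbols), both on the log2(FPKM + 1) scale, with equal change on the dashed line. Mitosis genes lie near 0 on the sham axis and high on the UIR axis, many immediate early genes lie near the dashed line, and proximal tubule genes lie mostly below it.

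Sham kidneys also changed between the same days. In sham kidneys 1881 genes rose (12.8%) and 4377 fell (29.7%), with a median of -0.12. The libraries of the 2 comparisons are different animals. Of the 2513 genes that fell in UIR kidneys 992 (39.5%) fell in sham kidneys too, which is 22.7% of the sham decreases, and 333 of these had a called difference. Of the 7271 that rose in UIR kidneys 821 (11.3%) rose in sham kidneys, 43.6% of the sham increases. Of the same 7271 genes 1984 (27.3%) fell in sham kidneys. The UIR change exceeded the sham change for 7377 genes (50.1%) and was below it for 1876 (12.7%), with a median difference of 0.44, and with median-of-ratios scaling these counts were 3985 and 4274.

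The day-21 libraries place these changes in time. Of the 2150 genes that rose by at least 2-fold to day 3, 1069 had a day-21 mean at or above that of day 3, 1002 lay between days 1 and 3, and 79 were back at or below day 1. Of the 734 that fell by at least 2-fold, 369 were at or below their day-3 mean at day 21, 335 lay between and 30 had returned to day 1 or above. Mki67 had 52.1 ± 7.53 FPKM at day 3 and 6.07 ± 0.37 FPKM at day 21, Col1a1 83.1 ± 48.5 and 297 ± 21.8 FPKM, and Hspa1a 15.5 ± 4.31 and 17.1 ± 2.31 FPKM (SD, n = 3 each). The median log2(FPKM + 1) over all listed genes was 2.36 to 2.46 in the UIR libraries of day 3 and 2.60 to 2.68 in those of day 21. The same counts were not made over all genes tested, so the counts above have no all-gene share to be read against. These are levels set side by side, and the step from day 3 to day 21 was not tested here.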

How the data were processed

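RNA sequencing was analysed for kidneys of 18 mice in 6 groups of 3. The authors deposited FPKM values for 20825 genes by Entrez ID and symbol. Per the submitters' processing notes the tools were RSEM 1.2.12, Bowtie2 2.2.5 and HISAT2 2.0.4 and the build was mm9, with no role given for any tool. The counts behind the values were not used here, and only relative depth was estimated from low values. For 27 symbols that a spreadsheet had turned into dates, the Entrez ID gave the name.

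Values were computed as log2(FPKM + 1). All 18 libraries entered 1 limma model (version 3.58.1, R 4.3.3) of 6 group means, with a variance trend and 12 residual degrees of freedom. Two-sided p-values were adjusted by the Benjamini-Hochberg method across all 14716 tested genes, and 0.05 was the threshold. The contrasts were UIR day 3 minus UIR day 1, the same for sham, and their difference. An exact permutation test of 3 against 3 cannot give a p under 0.1, so single genes were tested only in the model. The fit was tested on simulated data.

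The members, the 40 lists (897 of 901 entries matched) and the promoter motifs were chosen with earlier results of these data known. Genes named were the 12 largest changes in each direction (mean of at least 5 FPKM over the 6 UIR libraries, no overlap), up to 5 members of a list in its direction and 3 in the other, 22 markers, the 6 largest differences from sham in each direction and defining markers of other cell types. Genes named outside these rules, mostly because they were not called, were chosen after their values were seen. Some list members are not reported here. The promoters are of build GRCm38.p6 and the FPKM values of mm9, so no coordinates were carried between them. Alternatives were other pseudocounts, filters, scalings, fits and omitted replicates.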

Additional observations from a re-analysis of the deposited data

Results flagged for a closer look

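The change from day 1 to day 3 differed between UIR and sham kidneys for the genes below, by the limma test of the difference itself (adjusted p between 1.08e-11 and 0.00986), among markers and the largest differences. Values are the UIR log2 change minus the sham log2 change. The difference was positive for C3 (7.39), Havcr1 (6.27), Aoc1 (6.00), Rpl14-ps1 (5.66), Cdc20 (5.29), Mki67 (5.25), Vcam1 (5.13), Ccl2 (5.05), Top2a (4.96), Col1a1 (4.54), Sox9 (2.74), Adgre1 (2.71), Lcn2 (2.32), Fn1 (2.2), Ccnd1 (1.80), Acta2 (1.61), Cdkn1a (1.25) and Hnf4a (1.15). It was negative for Slc7a13 (-7.56), Inmt (-6.66), Ces1f (-6.31), Akr1c21 (-6.08), Pvalb (-6.02), Miox (-5.78), Hspa1a (-4.89), Slc34a1 (-3.89) and Umod (-0.85). C3 and Havcr1 rose in UIR kidneys by 3.77 and 3.13 while they fell in sham kidneys by 3.62 and 3.14. Slc7a13, Inmt and Miox fell in UIR kidneys by 4.70, 4.83 and 3.68 and rose in sham kidneys by 2.86, 1.83 and 2.10. For Lcn2 and Cdkn1a the positive difference means a smaller fall in UIR than in sham kidneys, and for Sox9 it rests on the sham fall of 2.59, since the UIR change of 0.15 was not called. The difference was not called with a pseudocount of 5 (0.50) or with median-of-ratios scaling (0.74) for Cdkn1a, with median-of-ratios scaling for Hnf4a (0.58) and with quantile normalization for Umod (-0.39). Rpl14-ps1 is a pseudogene with near-identical copies, so its value is uncertain. Hist1h2ao was listed at 0 in all UIR day-1 libraries and is given no fold, and its fitted difference of 5.91 depends on the pseudocount (9.18 with 0.1 and 3.72 with 5).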

How the results depend on the processing

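For UIR day 3 minus day 1, 4435 genes were higher and 4848 lower with median-of-ratios scaling and 4593 and 4481 with quantile normalization. Genes higher by at least 2-fold numbered 3364 with a pseudocount of 0.1, 746 with 5, 3533 as TPM, 1185 with median-of-ratios and 1137 with quantile values, and those lower 476 with a pseudocount of 5, 1296 with median-of-ratios and 1109 with quantile values. In sham kidneys 3036 were higher and 2863 lower with median-of-ratios scaling, and 2574 lower with quantile values. For the difference the counts were 3985 and 4274 with median-of-ratios scaling, 3900 and 3885 with quantile values, and 1197 lower as TPM. These scalings shift the median gene by construction, and a pseudocount sets how far low values are compressed. Leaving out each replicate gave 6738 to 7327 genes higher and 2251 to 2547 lower (2000 to 2336 and 691 to 817 by at least 2-fold), 1425 to 1907 and 3602 to 3919 in sham kidneys, and 6965 to 7512 and 1709 to 2001 for the difference. The replicate numbers are not known to pair the mice, since same-numbered UIR libraries correlated at 0.04, -0.04 and 0.11 in their deviations, and with a replicate block 6211 genes were higher and 2027 lower. The sign of a list's median changed for p53 targets (0.02 as deposited, -0.37 with median-of-ratios scaling and -0.06 with quantile normalization and -0.06 without UIR day-3 replicate 3), ribosome biogenesis (0.31 as deposited, -0.09 with median-of-ratios scaling), distal convoluted and connecting tubule (-0.09 as deposited, 0.08 as TPM and 0.01 without UIR day-1 replicate 2), collecting duct principal cells (0.25 as deposited, -0.11 with median-of-ratios scaling and -0.08 with quantile normalization), intercalated cells (0.08 as deposited, -0.26 with median-of-ratios scaling and -0.30 with quantile normalization and -0.02 without UIR day-1 replicate 3), B cell and plasma cell markers (0.35 as deposited, -0.03 with quantile normalization) and podocyte markers (0.34 as deposited, -0.03 with median-of-ratios scaling), and the endothelial median of 0.00 ran from -0.35 to 0.12. The sign of a single gene's UIR change, all of them small and all but that of Ogdh not called as deposited, changed with quantile normalization for Cd79a (-0.20), Cdc25a (-0.08), Egfr (-0.25), Fosl2 (-0.16), G6pdx (-0.02), Ly6g (-0.44), Nphs1 (-0.27) and Sox9 (-0.01), with median-of-ratios scaling for Cdc25a (-0.08), Egfr (-0.38), Fosl2 (-0.38), G6pdx (-0.34), Ly6g (-0.18), Nphs1 (-0.19), Ogdh (-0.08), Pecam1 (-0.07) and Sox9 (-0.23), with pseudocount 5 for Egfr (-0.00), with library weights for Egfr (-0.10), Pttg1 (0.06) and Sox9 (-0.00), with TPM values for Pttg1 (0.14), and it changed in part of the fits without 1 UIR library for Egfr (-0.13 to 0.13), Fosl2 (-0.06 to 0.10), G6pdx (-0.04 to 0.22), Ly6g (-0.03 to 0.15), Nphs1 (-0.01 to 0.34), Pttg1 (-0.08 to 0.04) and Sox9 (-0.00 to 0.29). Among these reversed changes, Egfr and G6pdx were called lower with median-of-ratios scaling (limma adjusted p = 0.0175 and 0.0184). Ly6g was called lower with quantile normalization (limma adjusted p = 0.025). The sign of the difference from sham changed with pseudocount 5 for Atf3 (-1.04), Egr1 (-0.06) and Fos (-0.15), with median-of-ratios scaling for Atf3 (-0.37), Egr1 (-0.26) and Fos (-0.18), with quantile normalization for Atf3 (-0.46), Egr1 (-0.03) and Fos (-0.32), with library weights for Atf3 (-0.04), with pseudocount 0.1 for Krt20 (0.37), and in part of the fits without 1 library for Atf3 (-0.47 to 0.49), Egr1 (-0.19 to 0.72) and Fos (-0.30 to 0.84), and none of these differences was called in the values as reported. With median-of-ratios scaling 130 of 139 called genes named in the text kept their call and direction, and at least 136 did under each other setting that left the libraries in. The difference from sham lost its call for Cdkn1a with a pseudocount of 5 (0.50) and with median-of-ratios scaling (0.74), for Hnf4a with median-of-ratios scaling (0.58) and for Umod with quantile normalization (-0.39). The cause of these changes was not tested. The direction held in all alternatives for the other genes named, and Areg, Cd79a, Chil3, Erbb4 and Ly6g were outside the filter of 5 FPKM. The comparison of UIR day 3 with sham day 3 was not run, and sham levels are given as values. Depth per library is known only relative to the others, and genes under 1 FPKM are the least precise.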
